A study of Mus musculus with 8 samples.

Results

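The stromal, matrix and mesothelial transcripts described here are 33 of the 47729 genes in the count table, picked by symbol: 24 genes of fibroblasts and the extracellular matrix and 9 genes of mesothelium. They were measured by bulk polyA RNA sequencing of γδ T cells sorted from visceral adipose tissue of C57BL/6 mice. In 4 samples the mice had eaten chow, which the labels call control, and in 4 they had eaten a ketogenic diet (KD), a fat-rich diet low in carbohydrate, for 1 week. No other genotype, allele or agent is named, and age and sex are not given in the sources used here. Whether a sample is 1 mouse or a pool is not stated either, so a p-value here reflects only the variation among the samples of a diet, part of which may be technical.

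Fibroblasts of fat depots secrete collagens, which are folded with the help of chaperones, assembled into fibrils or sheets, bound by small proteoglycans and cross-linked by oxidases of the lysyl oxidase family. Visceral fat is also wrapped in mesothelium, a single layer of cells that lines the body cavity, contains keratins and carries surface proteins such as mesothelin. T cells are not known as a main source of either program.

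The libraries held 19796112 to 31926427 counts. Trdc, which encodes a constant part of the γδ receptor, ranged from 3952 to 4760 CPM (counts relative to the scaled library size). A set of 10 identity genes of γδ T cells summed to 10948 to 11238 CPM in chow and to 11351 to 12325 CPM in KD. This sum was thus higher in every KD library than in every chow library. Of the 10 genes 0 were called by edgeR's quasi-likelihood test. At an unadjusted p under 0.05, 4 were higher in KD (4.48% of all tested genes). The 33 genes together took 0.0046% to 0.0979% of the counts of a library. A floor of 3 counts equals 0.0947 to 0.152 CPM in a library, and in a sort it cannot be told apart whether there were fewer cells of a type or less RNA per cell. Chow replicate 4 and KD replicate 1 stood apart from the other libraries of their diet: the first had 26 of the 33 genes at 3 or more counts where the other chow libraries had 16, 11 and 13. KD replicate 1 also had 26, and KD replicates 2 to 4 had 33, 32 and 32.

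**Figure D1:**
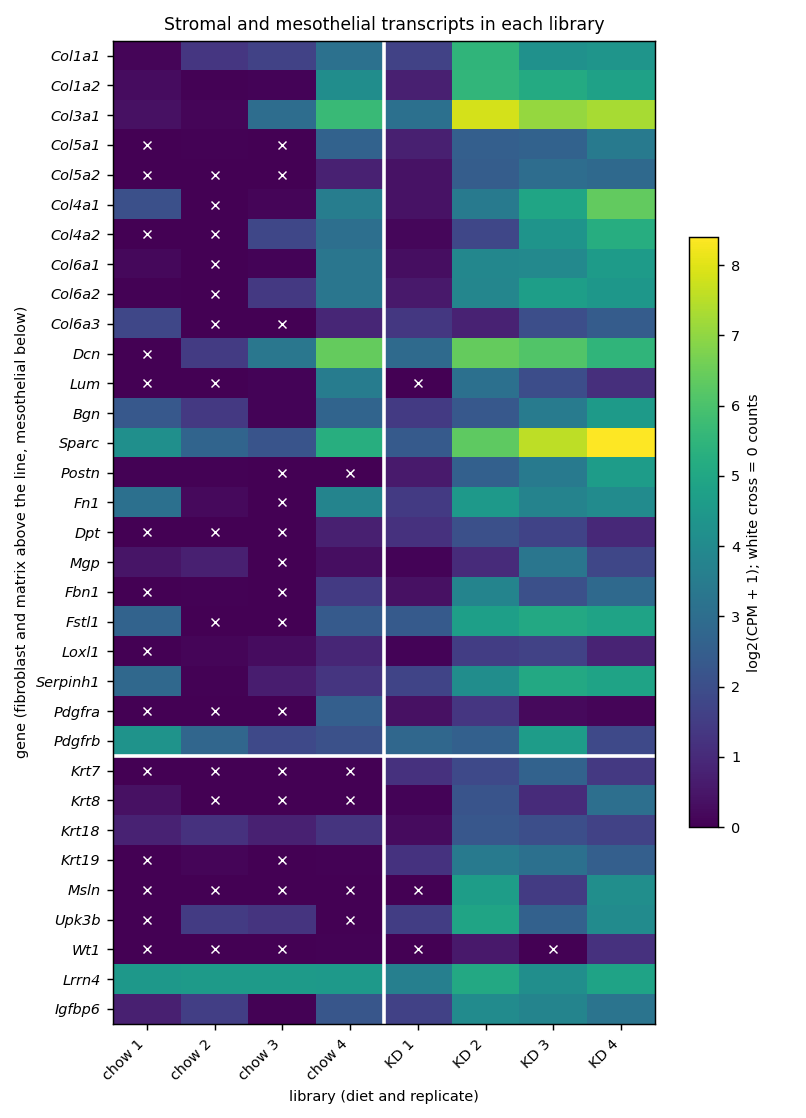
Level of each of the 33 genes (rows) in each library (columns) as log2(CPM + 1), with a white cross where the library had 0 counts. KD replicates 2 to 4 and chow replicate 4 are bright in the upper block, whereas the lower block is bright in KD replicates 2 to 4 and, for Lrrn4, in all 8 libraries.

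RNA of the fibroblast and matrix list was found in every library, at levels and with a make-up that ranged widely within each diet. The 24 genes summed to 65.8, 17.3, 29.5 and 285 CPM in chow replicates 1 to 4 and to 43.0, 639, 688 and 898 CPM in KD replicates 1 to 4. KD replicate 1 was below chow replicates 1 and 4, so the diets overlapped (99.5 ± 126 CPM in chow, 567 ± 367 CPM in KD, SD, n = 4). In chow replicate 1 Pdgfrb and Sparc gave 449 and 411 of the 1574 counts. That library had 0 counts of Dcn, Lum, Dpt, Fbn1 and Pdgfra. Its 5 fibrillar collagen genes summed to 0.585 CPM, against 11.3 CPM in KD replicate 1. Of the 23 genes that passed the count filter 1 rose in KD (Postn) and 0 fell by edgeR's quasi-likelihood test, where 0.328% of all 13397 tested genes were called higher and 0.179% lower. Postn passed the filter only through the KD libraries, so among the tested genes it could only come out higher. DESeq2 gave no adjusted p to Pdgfra (log2 fold change -1.24). Among the other members of the list it called 1 higher, Postn, and 0 lower. Of the 16337 genes to which it gave an adjusted p it called 1.81% higher and 1.03% lower. By edgeR's quasi-likelihood test 0 of the 23 were lower at an unadjusted p under 0.05. All 23 that passed the filter had a positive log2 fold change (median 2.66, range 0.15 to 8.72), against 50.9% of all tested genes (median 0.01), whereas Pdgfra, which did not pass it, had -1.23 in the fit without the filter. An unadjusted p under 0.05 with a higher KD level was seen in 8 of 23, against 4.48% of all tested genes. The genes were chosen with earlier results of these data known and varied together between libraries, so these shares are a description and no test. In 2 of 24 genes, Postn and Dpt, every KD library was above every chow library, which held for 3.3% of all tested genes, and in 0 of 24 every KD library was below (2.75%). Leaving out chow replicate 4 took the median to 4.13, leaving out KD replicate 1 to 3.07, leaving out both to 4.53, and leaving out KD replicates 3 and 4 to 1.38. Chow replicate 4 and KD replicate 1 were picked for their levels, so the rise without them is no check of the result. These values are those of RNA in a sort and not of the tissue's fibroblasts.

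**Figure D2:**
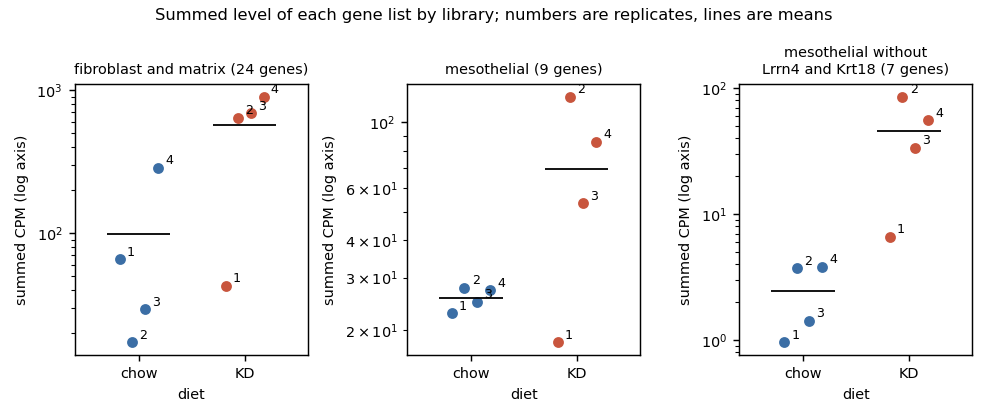
Summed CPM (log axis) of 3 gene lists by diet, with the replicate number beside each point and a line at each mean. For the fibroblast and matrix genes KD replicate 1 (43.0 CPM) lies among the chow libraries, whereas the sum of the 7 mesothelial genes other than Lrrn4 and Krt18, 2 genes set aside after seeing the data, is above all chow libraries in each KD library (6.62 CPM or more against 3.81 CPM or less).

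The 5 fibrillar collagen genes encode the chains of the rope-like fibrils of types I, III and V, and 0 of the 5 passed the test (2, Col1a1 and Col5a2, had an unadjusted p under 0.05). Col3a1, the chain of type III collagen, was the most abundant per length of the 5 in KD (30.2 FPKM on average, fragments scaled by gene length and depth). It stood at 0.293, 0.0749, 6.98 and 50.5 CPM in chow and at 7.48, 231, 134 and 156 CPM in KD. KD replicates 2 to 4 were the highest, chow replicate 4 came next, and KD replicate 1 was close to chow replicate 3 (log2 fold change 3.18 with SE 1.58, adjusted p = 0.642). Col1a1 and Col1a2, the 2 chains of type I collagen, had positive but uncertain log2 fold changes, 2.86 with SE 1.05 for the former (adjusted p = 0.453) and 2.66 with SE 1.78 for the latter (adjusted p = 0.76). Col1a1 stood at 0.0836, 1.5, 2.15 and 7.72 CPM in chow and at 2.14, 43.5, 18.1 and 19.95 CPM in KD, so that KD replicate 1 was level with chow replicate 3 and below chow replicate 4. Col1a2 stood at 0.209, 0.0375, 0.0631 and 16.4 CPM in chow and at 0.667, 44.6, 33.7 and 27.2 CPM in KD. Chow replicates 1 to 3 thus held 5 or fewer Col1a2 counts each, and chow replicate 4 held 494. Col5a1 and Col5a2, the chains of type V collagen that sets fibril diameter, had 1 and 0 counts in all of chow replicates 1 to 3 together. In chow replicate 4 they reached 5.27 and 0.695 CPM, and the KD values ran from 0.667 to 9.68 CPM and from 0.334 to 7.08 CPM (adjusted p = 0.84 and 0.418).

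Upstream sequence is shown for the one fibroblast gene that rose, Postn, for the leading fibrillar collagen, Col3a1, and for Upk3b, a mesothelial gene whose diets did not overlap, to set side by side the promoters of genes that were high in KD replicates 2 to 4. Each run is the 250 bases before a RefSeq start site (GRCm38.p6, plus strand), 5′ to 3′, with any TATAAA in capitals. They lie at chr3:54360857-54361106, chr1:45311288-45311537 and chr5:136038246-136038495, and contain no annotated exon (GENCODE M21).
Postn: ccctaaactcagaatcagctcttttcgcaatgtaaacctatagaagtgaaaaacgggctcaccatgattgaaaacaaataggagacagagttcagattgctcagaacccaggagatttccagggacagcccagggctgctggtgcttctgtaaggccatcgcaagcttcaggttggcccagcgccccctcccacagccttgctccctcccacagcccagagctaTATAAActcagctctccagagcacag
Col3a1: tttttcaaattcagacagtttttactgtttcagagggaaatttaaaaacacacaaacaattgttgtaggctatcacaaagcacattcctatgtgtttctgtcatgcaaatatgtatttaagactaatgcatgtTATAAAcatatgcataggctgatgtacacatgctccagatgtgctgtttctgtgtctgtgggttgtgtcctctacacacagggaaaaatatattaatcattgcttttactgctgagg
Upk3b: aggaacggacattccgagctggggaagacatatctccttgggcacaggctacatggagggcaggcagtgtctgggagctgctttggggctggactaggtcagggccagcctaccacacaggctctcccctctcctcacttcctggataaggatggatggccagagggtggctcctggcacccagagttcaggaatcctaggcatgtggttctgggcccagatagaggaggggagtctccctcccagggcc
In Postn the letters TATAAA begin 26 bases before the start site, and in Col3a1 they begin 117 bases before it. The Upk3b window holds none of the 3 motifs searched on both strands. These were the TATA box spelled as above, the CCAAT box spelled as its name, and the GC box, spelled GGGCGG. Of the 22 genes with a RefSeq window, 3 held a TATA box, 4 a CCAAT box and 9 a GC box (13.6%, 18.2% and 40.9%), where 12.4%, 33.8% and 32.7% of 32851 windows of the same length did. A motif match is a match of letters only. For Postn 2 start sites are listed and the one nearest the GENCODE gene start is shown.

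The sheet-forming and beaded collagens also varied widely between libraries, and 0 of the 5 genes passed the test or had an unadjusted p under 0.05. Col4a1 and Col4a2 encode the type IV chains of basement membranes, which endothelial and mural cells also make. Col4a1 stood at 3.09, 0, 0.0947 and 10.7 CPM in chow and at 0.334, 9.9, 29.3 and 82.7 CPM in KD (log2 fold change 3.13 with SE 1.74, adjusted p = 0.69). KD replicate 4 was the highest and KD replicate 1 was below chow replicates 1 and 4. Col4a2 stood at 0, 0, 2.43 and 7.39 CPM in chow and at 0.0953, 2.48, 19.2 and 36.2 CPM in KD (log2 fold change 2.55 with SE 1.73, adjusted p = 0.764). Both were highest in KD replicates 3 and 4, the libraries with the most endothelial RNA (308 and 446 CPM over 12 markers, 55.4 to 137 CPM in the other libraries); the part of that RNA in the result was not tested. Without KD replicates 3 and 4 the log2 fold change of Col4a2 was -0.93. The 2 genes lie head to head on chromosome 8 (11198423 to 11312826 on the minus strand and 11312805 to 11449287 on the plus strand, GRCm38) and share 22 exonic bases, where reads cannot be assigned without strand. They are the only members whose exons overlap those of another tested gene. Type VI collagen, a beaded network around cells, is built from Col6a1, Col6a2 and Col6a3, with log2 fold changes of 2.51, 2.48 and 1.57 (adjusted p = 0.743, 0.706 and 0.855). Col6a1 stood at 0.125, 0, 0.0631 and 8.88 CPM in chow and at 0.238, 13.9, 14.6 and 23.3 CPM in KD. Col6a2 stood at 0.0418, 0, 1.64 and 8.91 CPM in chow and at 0.477, 13.4, 24.97 and 20.6 CPM in KD. Chow replicate 3 held 52 Col6a2 counts and 2 Col6a1 counts, and the highest library was KD replicate 3 for Col6a2 and KD replicate 4 for Col6a1. For Col6a3 the chow maximum, 2.47 CPM, was in replicate 1, and KD replicate 2 held 0.753 CPM.

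Postn rose in KD. It encodes periostin, a secreted protein of activated fibroblasts that binds collagen. It had 1, 1, 0 and 0 counts in chow and 11, 133, 197 and 513 counts in KD, which is at most 0.0418 CPM against 0.524, 5.01, 9.96 and 23.8 CPM. Each KD library was above each chow library, and KD replicate 1 was the lowest of its diet. The fitted log2 fold change, which depends on the prior count and is no bound, was 8.72, and it was 7.78 without KD replicate 4 and 6.88 without KD replicates 3 and 4. With the counts of the 4 libraries of each diet pooled, the ratio of the diets was 540 (95% exact binomial counting interval 149 to 4467). That interval leaves out the variation between libraries. By edgeR's quasi-likelihood test the adjusted p was 0.0278, for a gene that passed the count filter only through the KD libraries. Leaving out any single library except KD replicate 1 ended the call (adjusted p = 0.0629 to 0.111). Without KD replicate 1 the adjusted p was 0.0153, and without KD replicates 3 and 4 it was 0.439. Chow replicate 4, with 2558 Dcn counts, had 0 Postn counts.

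The other 9 genes of matrix glycoproteins and proteoglycans did not pass the test. Sparc, a collagen-binding protein made by fibroblasts and endothelium, was the most abundant of all 33 genes per length in KD (120 FPKM on average, 11.3 FPKM in chow). It stood at 17.2, 5.51, 3.57 and 37.2 CPM in chow and at 4.24, 79.1, 189 and 335 CPM in KD (log2 fold change 3.26 with SE 1.21, adjusted p = 0.497). KD replicate 1 was below 3 of the 4 chow libraries. The length that FPKM implies for Sparc varied 1.83-fold between libraries, so its per-length levels are less certain than those of genes such as Dcn, where it varied 1.03-fold. Dcn, the proteoglycan decorin, stood at 0, 1.72, 8.93 and 84.7 CPM in chow and at 6.53, 84.8, 68.6 and 44.2 CPM in KD. Chow replicate 4 matched KD replicate 2, the highest KD library (log2 fold change 1.09 with SE 1.48, adjusted p = 0.921). Lum, the related proteoglycan lumican, was highest in chow replicate 4 at 10.6 CPM, and KD replicates 1 to 4 held 0, 7.6, 2.98 and 1.2 CPM (log2 fold change 0.15 with SE 1.93, adjusted p = 0.994). The sign of the Lum value turned when chow replicate 1, 2 or 3 or KD replicate 2 was left out (-0.94 to -0.26). Bgn, the third proteoglycan of this family, had 95, 44, 2 and 168 counts in chow (0.0631 to 5.56 CPM), with replicate 3 under the floor, and reached 22.7 CPM in KD replicate 4 (log2 fold change 1.78, adjusted p = 0.705).

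Dpt, which encodes dermatopontin, a matrix protein used as a marker of adipose fibroblasts, had 0 counts in chow replicates 1 to 3 and 0.662 CPM in chow replicate 4. In KD it stood at 1.29, 3.16, 2.22 and 0.972 CPM, so each KD library was above each chow library. The difference did not pass (log2 fold change 3.47 with SE 1.55, adjusted p = 0.569), and the lowest KD library and chow replicate 4 differed by a single count (21 and 20). Fbn1, the microfibril protein fibrillin, had 1 count in chow replicates 1 to 3 together, 1.69 CPM in chow replicate 4, and 0.286, 12.7, 3.18 and 6.25 CPM in KD (log2 fold change 3.68 with SE 1.66, adjusted p = 0.577). Fn1, fibronectin, ran from 0 to 12.8 CPM in chow and from 1.67 to 22.2 CPM in KD (log2 fold change 1.34, adjusted p = 0.873). Mgp, an inhibitor of calcification, was at most 0.674 CPM in chow and stood at 0.0477, 1.05, 8.9 and 2.45 CPM in KD, with KD replicate 1 below 3 chow libraries (log2 fold change 3.27, adjusted p = 0.568). Fstl1, a secreted glycoprotein, was at 5.44, 0, 0 and 4.17 CPM in chow and at 4.15, 25.7, 32.8 and 28.1 CPM in KD (log2 fold change 3.24 with SE 1.34, adjusted p = 0.542). KD replicate 1 was again no higher than chow replicates 1 and 4.

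The 2 genes of collagen assembly behaved alike in sign. Serpinh1, the chaperone HSP47 of procollagen folding, stood at 6.1, 0.0375, 0.6 and 1.46 CPM in chow and at 2.29, 16.4, 32.8 and 28.1 CPM in KD (log2 fold change 3.29 with SE 1.12, adjusted p = 0.396). Its chow maximum was in chow replicate 1 and not in chow replicate 4, where 9 of the 10 collagen genes were at theirs, and KD replicate 1 overlapped chow. Its counts in KD replicates 3 and 4 (648 and 608) equal those of Fstl1 as deposited, while their FPKM differ. Loxl1, a cross-linking oxidase, reached at most 0.861 CPM in chow and at most 2.12 CPM in KD (log2 fold change 2.04, adjusted p = 0.754).

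The platelet-derived growth factor receptors separated 2 patterns. Pdgfra, the receptor that marks fibroblasts and their progenitors, had 0 counts in chow replicates 1 to 3, 145 in chow replicate 4 and 6, 40, 3 and 2 in KD replicates 1 to 4. It did not pass the count filter, and its highest library by far was chow replicate 4 (4.8 CPM). KD replicates 3 and 4 held 3 and 2 Pdgfra counts beside 2642 and 3362 Col3a1 counts. Pdgfrb, the receptor of mural cells and also of fibroblasts, stood at 18.8, 5.81, 2.62 and 3.21 CPM in chow and at 5.96, 5.01, 24.1 and 2.64 CPM in KD (log2 fold change 0.31 with SE 0.78, adjusted p = 0.964). Its 2 high libraries were chow replicate 1 and KD replicate 3, which were also the highest for 10 mural markers (222 and 334 CPM, against 11.9 to 116 CPM in the other libraries). Without KD replicate 3 its log2 fold change was -0.74.

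**Figure D3:**
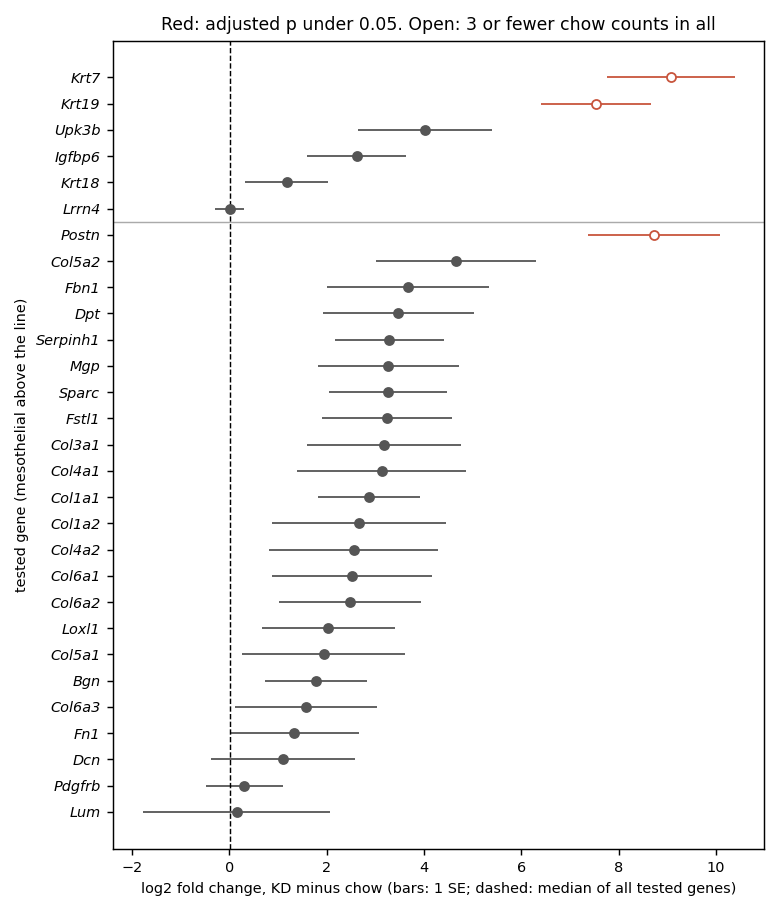
Log2 fold change (KD minus chow) of the 29 genes that passed the count filter, with 1 SE, and the median of all tested genes as a dashed line. All 29 points lie to the right of 0, 3 are red (Krt7, Krt19 and Postn, adjusted p under 0.05), and open points mark genes with 3 or fewer chow counts, whose fitted values depend on the prior count.

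Mesothelial RNA was carried mostly by KD libraries once Lrrn4 and Krt18 were set aside. The 9 genes summed to 22.7, 27.7, 24.8 and 27.2 CPM in chow replicates 1 to 4 and to 18.2, 122, 53.3 and 85.9 CPM in KD replicates 1 to 4. Lrrn4 made up most of the chow sums, and without it and Krt18, a choice made after seeing the data, the sums were 0.962, 3.71, 1.42 and 3.81 CPM in chow and 6.62, 85.5, 33.5 and 55.5 CPM in KD. The 7-gene sum was then higher in every KD library than in every chow library, with KD replicate 1 nearest to chow. Igfbp6, which fibroblasts make as well, was kept in it and gave 113 of the 115 counts in chow replicate 4. Over all 9 genes KD replicate 1 was below every chow library, and Krt8, Msln and Wt1 overlapped between the diets one by one. Of the 6 genes that passed the count filter 2 rose (Krt7 and Krt19) and 0 fell, against 0.328% and 0.179% of all tested genes. DESeq2, which gave all 9 an adjusted p, called 4 higher (Krt7, Krt8, Krt19 and Msln) and 0 lower, against 1.81% and 1.03% of its genes, and 0 were lower at an unadjusted p under 0.05. All 6 had a positive log2 fold change (median 3.32, range 0.01 to 9.08), against 50.9% of all tested genes (median 0.01). The highest, 9.08, was that of Krt7, which had 0 chow counts, so it depends on the prior count. The median of the mesothelial genes was 5.42 when chow replicate 1 was left out and 5.07 when KD replicate 1 was. In both fits 8 of the 9 genes were tested. In 3 of the 9 genes, Krt7, Krt19 and Upk3b, every KD library was above every chow library, which held for 3.3% of all tested genes and for 2.48% without the count filter. Krt7, Krt19 and, among the fibroblast genes, Postn passed the filter only through the KD libraries, so counts over the genes that passed are a description. The members were also chosen with earlier results of these data known.

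Krt7 and Krt19, keratins of simple epithelia and mesothelium, rose in KD. Krt19 had 0, 2, 0 and 1 counts in chow and 28, 264, 148 and 105 counts in KD, or 1.33, 9.94, 7.48 and 4.86 CPM. Each KD library was above each chow library by at least an order of magnitude in counts, KD replicate 2 being the highest. On the pooled counts of each diet the ratio was 230 (95% exact binomial counting interval 78.2 to 1118), an interval that leaves out the variation between libraries. The adjusted p of Krt19 was 0.0247 by edgeR's quasi-likelihood test. Krt7 had 0 counts in all 4 chow libraries and 27, 69, 103 and 35 counts in KD, or 1.29, 2.6, 5.21 and 1.62 CPM. With 3 counts over all chow libraries taken as the floor, KD was at least 98.7-fold higher (adjusted p = 0.0437). Here KD replicate 1 lay close to KD replicate 4, unlike its place in the collagen genes. Krt19 stayed called only without chow replicate 2 (adjusted p = 0.0477) or KD replicate 1 (0.0318), and the fits without each of the other libraries gave 0.0503 to 0.108. Krt7 was called in none of the 8 fits that left out a library (adjusted p = 0.0704 to 0.171). It was also not called without the count filter (adjusted p = 0.0606), where 0.185% of 22672 genes were called higher. Exons of Krt7 overlap those of Gm671 on the other strand, a gene that was not tested.

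Krt8 and Krt18 encode the partner keratins of simple epithelia. Krt8 had 7, 0, 0 and 0 counts in chow and stood at 0.0477, 3.54, 1.06 and 7.41 CPM in KD, with KD replicate 1 at a single count, and it did not pass the count filter. Krt18 was present in all 8 libraries, at 0.753, 1.27, 0.695 and 1.39 CPM in chow and at 0.191, 3.88, 3.08 and 2.18 CPM in KD (log2 fold change 1.18 with SE 0.86, adjusted p = 0.79). Its lowest library was KD replicate 1, so the diets overlapped.

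The other mesothelial genes were uneven between libraries, and 0 of the 3 tested passed (2 had an unadjusted p under 0.05). Msln, mesothelin, a surface glycoprotein of mesothelium, had 0 counts in every chow library and in KD replicate 1, and 651, 34 and 357 counts in KD replicates 2 to 4. With 3 counts over all chow libraries taken as the floor, KD was at least 439-fold higher. Because 1 KD library was at 0 the diets overlapped, and it did not pass the count filter. Upk3b, a uroplakin of mesothelium whose upstream sequence is shown above, stood at 0, 1.72, 1.39 and 0 CPM in chow and at 1.86, 28.9, 5.06 and 15.4 CPM in KD. All KD libraries were higher, KD replicate 1 only slightly so (log2 fold change 4.03 with SE 1.37, adjusted p = 0.396). Wt1, a transcription factor of mesothelium, had 1 count in chow and 0, 13, 0 and 28 counts in KD, so the diets overlapped. It did not pass the count filter. On the pooled counts of each diet the ratio was 51.9 (95% exact binomial counting interval 8.80 to 2098), an interval that leaves out the variation between libraries. Igfbp6, a binding protein of insulin-like growth factor 2 that fibroblasts make as well, stood at 0.669, 1.91, 0.0316 and 3.74 CPM in chow and at 2.1, 15.6, 12.9 and 8.43 CPM in KD (log2 fold change 2.61 with SE 1.02, adjusted p = 0.497). Its chow maximum was in replicate 4, like that of 9 of the 10 collagen genes.

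Lrrn4, a leucine-rich repeat membrane protein gene used as a mesothelial marker in mouse, departed from the list. It stood at 21.03, 22.7, 22.7 and 22.0 CPM in chow and at 11.3, 32.6, 16.7 and 28.2 CPM in KD. The chow libraries were nearly level while Msln was at 0 in all 4 of them, and the KD libraries lay on both sides of chow. The means were 22.1 ± 0.807 and 22.2 ± 9.86 CPM (SD, n = 4; log2 fold change 0.01, SE 0.30, adjusted p = 0.997). Per length it was the highest of the 33 genes in chow replicates 2 and 3 (6.37 and 6.2 FPKM).

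**Figure D4:**
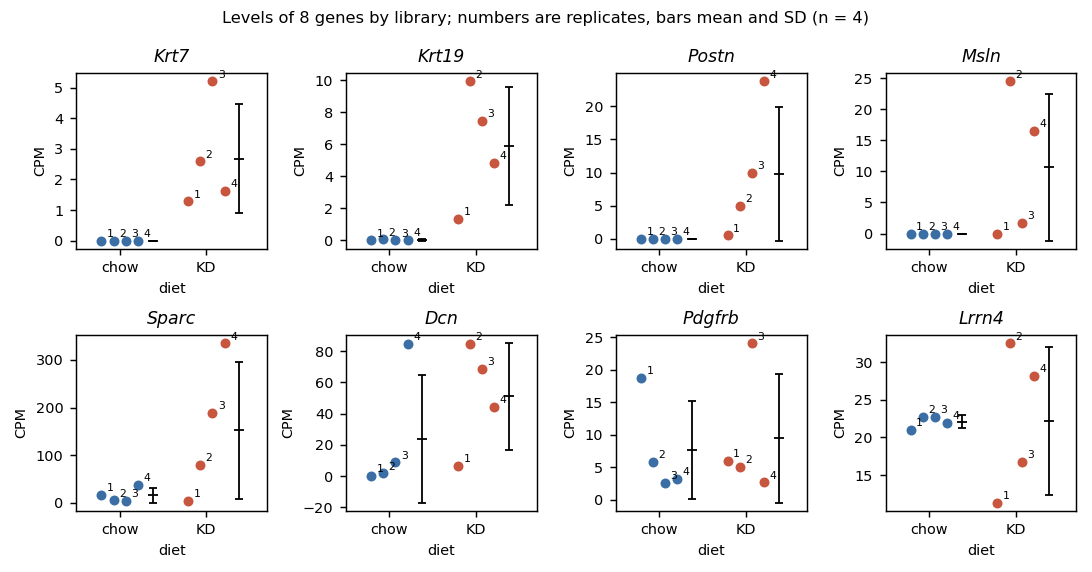
CPM of 8 genes by diet, with the replicate number beside each point and the mean and SD (n = 4) to its right, each panel on its own axis. Krt7, Krt19 and Postn have no overlap between the diets, Msln is at 0 in all chow libraries and KD replicate 1, Dcn is as high in chow replicate 4 as in KD replicate 2, Pdgfrb is high in chow replicate 1 and KD replicate 3, and Lrrn4 is level in chow.

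The make-up of the stromal RNA differed between libraries of the same diet. Per 100 CPM of fibroblast and matrix RNA, the 7 mesothelial genes other than Lrrn4 and Krt18 gave 1.46, 21.4, 4.82 and 1.34 CPM in chow and 15.4, 13.4, 4.86 and 6.18 CPM in KD. Chow replicates 1 and 4 had the least and chow replicate 2 the most, on 23 to 115 counts of the 7 genes per chow library. Igfbp6, which fibroblasts make as well, gave 16, 51, 1 and 113 of the 23, 99, 45 and 115 counts in chow. In KD it gave 44, 414, 256 and 182 of the 139, 2272, 662 and 1199 counts. The chow ratios are thus no clean measure of mesothelial RNA. Per 100 Col3a1 counts there were 10.6, 1.29 and 10.6 Msln counts in KD replicates 2 to 4. Sparc counts per 100 Col3a1 counts were 34.3, 142 and 215 in the same libraries, and Col4a1 counts were 4.29, 21.9 and 53.1. The order of KD replicates 2, 3 and 4 in these ratios was thus different for Msln and for Sparc and Col4a1. Of the 33 genes, 13 were highest in KD replicate 2, 8 in KD replicate 3, 10 in KD replicate 4 and 2 (Lum and Pdgfra) in chow replicate 4.

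Marker RNA of other cell types moved with some of these values. The mural markers summed to 222, 11.9, 23.4 and 20.997 CPM in chow and to 19.7, 18.7, 334 and 116 CPM in KD, so KD replicate 2 had 639 CPM of fibroblast RNA with little mural RNA. Acta2, the smooth muscle actin, led that list with 77.9 CPM in chow replicate 1 and 136 CPM in KD replicate 3, and was at 0 in chow replicate 4. Its next gene, Myl9, a myosin light chain, had 54.9 CPM in chow replicate 1 and 64.9 CPM in KD replicate 3, and also stood at 0 in chow replicate 4. The 12 endothelial markers summed to 137, 69.6, 57.6 and 56.8 CPM in chow and to 55.4, 66.6, 308 and 446 CPM in KD. Pecam1, an adhesion molecule that T cells also carry, was at 39.6 CPM or more in every library, and Aqp1, a water channel, reached 41.6 and 145 CPM in KD replicates 3 and 4 and at most 3.97 CPM elsewhere. The 10 macrophage markers summed to 88.3 CPM in chow replicate 4 and to 2.97 to 29.5 CPM elsewhere. The 8 markers of αβ T and B cells summed to 119, 120.1, 85.3 and 120.02 CPM in chow and to 195, 147, 184 and 188 CPM in KD, so that every KD library was above every chow library, KD replicate 1 included. The same held for the sum of the 10 γδ T cell identity genes. Of the 8 αβ T and B cell genes 5 were tested and 0 were called by edgeR's quasi-likelihood test. With an unadjusted p under 0.05, 2 were higher in KD, against 4.48% of all tested genes. DESeq2 called 1 higher and 0 lower, against 1.81% and 1.03% of its genes. Of the 5 tested by edgeR, 3 had a positive and 2 a negative log2 fold change (down to -2.42). One by one, 1 of the 8 genes was higher in every KD library than in every chow library, which held for 3.3% of all tested genes. The sum rested on few genes, since 2 to 5 of the 8 had 0 counts in a library (5 in KD replicate 4). The 9 adipocyte markers summed to 240 and 417 CPM in KD replicates 3 and 4 and to 3.3 to 36.7 CPM elsewhere. The part of these cells in the differences of the fibroblast and mesothelial genes was not tested.

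**Figure D5:**
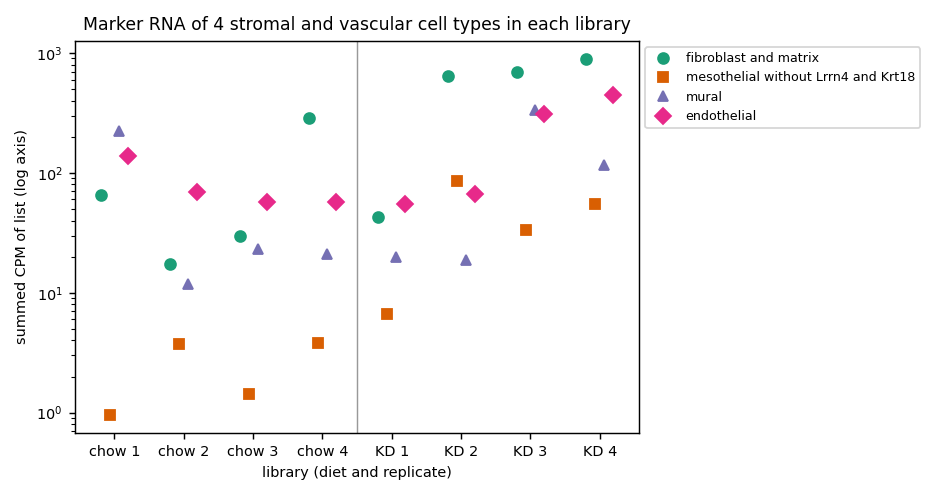
Summed CPM (log axis) of fibroblast and matrix, mesothelial (without Lrrn4 and Krt18), mural and endothelial genes in each library. Chow replicate 1 is high in mural RNA (222 CPM), chow replicate 4 in fibroblast RNA (285 CPM), KD replicate 2 in fibroblast and mesothelial RNA (639 and 85.5 CPM), and KD replicates 3 and 4 in all 4 lists.

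Further genes of the same programs were read from lists of related function. Of 46 other matrix genes 32 were tested: 28 had a positive and 4 a negative log2 fold change (median 1.46). Among all tested genes 50.9% were positive (median 0.01). By edgeR's quasi-likelihood test 1 of the 32 rose and 0 fell, against 0.328% and 0.179% of all tested genes. The median of the other matrix genes was 0.79 without KD replicate 2, 0.85 without KD replicate 3 and 0.30 without KD replicates 3 and 4. The gene that rose was Spon2, a secreted matrix protein that also has roles in immune cells, at 10.996, 2.32, 7.45 and 5.07 CPM in chow and at 40.2, 42.6, 52.4 and 39.5 CPM in KD (log2 fold change 2.76 with SE 0.40, adjusted p = 0.0208). Its KD libraries were level, KD replicate 1 included, unlike those of the fibroblast members. The adjusted p of Spon2 was 0.0611 to 0.0991 in the fits without chow replicate 3 or 4 or any 1 KD library, and it stayed called without chow replicate 1 or 2 (0.017 and 0.0188). Lox, the founding lysyl oxidase, had 0 counts in chow and 0.286, 5.76, 5.16 and 2.31 CPM in KD, at least 131-fold higher with the same floor of 3 chow counts, and did not pass the filter; it was singled out after its values were seen. P4hb and Timp2, a subunit of collagen prolyl hydroxylase and a protease inhibitor, had the highest mean CPM of this list. They stood at 568 ± 36.3 and 123 ± 27.5 CPM in chow and at 602 ± 30.9 and 170 ± 13.7 CPM in KD (SD, n = 4). Their log2 fold changes were 0.08 and 0.47 (adjusted p = 0.835 and 0.37).

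Of 14 other fibroblast genes 11 were tested and 0 were called (10 positive, median 1.25, 1 higher with an unadjusted p under 0.05, 0 by DESeq2). Of all tested genes 50.9% were positive, and 4.48% were higher with an unadjusted p under 0.05. Without chow replicate 4 the median of the other fibroblast genes was 2.59. Gsn, an actin-severing protein, had the highest mean CPM of the list. It was highest in chow replicate 4 at 339 CPM and at 31.3 to 114 CPM in KD (log2 fold change -0.72, adjusted p = 0.921). Its sign turned to 1.03 without chow replicate 4. Igfbp4, a growth factor binding protein, was highest in KD replicate 3 at 78.7 CPM and at 9.91 to 29.7 CPM elsewhere (log2 fold change 1.35, adjusted p = 0.481). Of 12 other mesothelial genes 8 were tested, all 8 with a positive value (median 3.10, against 50.9% of all tested genes), and 0 were called. With an unadjusted p under 0.05, 2 were higher, against 4.48% of all tested genes. DESeq2 called 1 higher, against 1.81% of its genes. Slpi, a secreted protease inhibitor, stood at 0, 0, 0.189 and 0 CPM in chow and at 0.524, 15.4, 5.0 and 18.7 CPM in KD (log2 fold change 7.48 with SE 1.46, adjusted p = 0.0672). Slpi showed no overlap between the diets, which held for 1 of the 8 and for 3.3% of all tested genes. KD replicate 1 was the lowest of its diet. Slpi passed the count filter only through the KD libraries, so among the tested genes it could only come out higher. Efemp1, a fibulin-like matrix protein, was at most 6.59 CPM in chow (replicate 4) and ran from 0.905 to 22.0 CPM in KD (log2 fold change 2.32, adjusted p = 0.688).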

How the data were processed

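For the 8 libraries the authors deposited estimated counts and FPKM of each gene, per the file headers. Per the submitters' processing notes, BWA, TopHat2, RSEM, DESeq2 and the build GRCm38 were used, without versions or roles. Strandedness was not given in the sources used here. Estimated counts were rounded, genes were kept by filterByExpr (minimum count 10, minimum total 15, 13397 kept) and libraries were scaled with TMM factors. The diets were tested with edgeR's quasi-likelihood F test (glmQLFTest, robust, two-sided, with no covariate) and Benjamini-Hochberg adjustment over all tested genes and a threshold of 0.05. CPM use scaled libraries. Members were ranked against each other by FPKM. List sums, the most abundant genes of the other lists and the ratios to Col3a1 rest on CPM or counts, which are not scaled by gene length. Versions were DESeq2 1.42.0, limma 3.58.1, edgeR 4.0.16 and R 4.3.3. The test was checked on simulated data.

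Counting error alone is covered by the intervals and floors, because PCR copies cannot be told from independent molecules here. The 27 symbols that a spreadsheet had turned into dates were restored by identifier. Positions are those of GENCODE M21 on GRCm38 (47310 of 47729 identifiers matched without version), and promoters are RefSeq's (22 of the 33 genes matched). Samples were grouped by their labelled diet. The members and lists were chosen with earlier results of these data known. The text names all 33 members. From the lists of other matrix, fibroblast, mesothelial, mural and endothelial genes it names those called and the 2 highest in mean CPM. Other genes are marked. Alternatives were other scaling, filters, tools, a replicate block and left-out samples. Same-numbered samples were not paired by the labels. Single-cell data that the series mentions were not analysed here.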

Additional observations from a re-analysis of the deposited data

Results flagged for a closer look

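Within a diet, 12 of the 62 sets of 4 values (the CPM of the 29 tested genes and the 2 list sums in chow or in KD, on the log2 scale) held a library whose gap to its nearest neighbour passed Dixon's 95% critical value. Pdgfra, Krt8, Msln and Wt1 were not tested and not included. Chance alone marks about 1 set in 20. Of the 12, 5 were high values in chow replicate 4 and 7 were low values in KD replicate 1. In chow replicate 4 they were Col5a1 (5.27 CPM), Col5a2 (0.695 CPM), Lum (10.6 CPM), Dpt (0.662 CPM) and Fbn1 (1.69 CPM). In KD replicate 1 they were Col1a2 (0.667 CPM), Col3a1 (7.48 CPM), Col5a2 (0.334 CPM), Col6a1 (0.238 CPM), Col6a2 (0.477 CPM), Fstl1 (4.15 CPM) and the summed fibroblast and matrix genes (43.0 CPM). Col5a2 and Dpt had 0 counts in the other 3 chow libraries, so the gap equals the whole range there and is no test. The 12 share 2 libraries and are not independent of each other.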

How the results depend on the processing

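Depth limits the statements on genes near 3 counts per library, and 4 of the 33 genes were not tested. RLE size factors and library size alone kept every count of calls within 1.5 times of the value above. Over all genes, 44 were called higher and 24 lower. The other settings gave, higher and lower, 11 and 1 (replicate block), 296 and 168 (DESeq2), 82 and 44 (limma on log2(FPKM + 1)), 79 and 40 (log2(FPKM + 0.1)), 4 and 0 (without KD replicates 3 and 4) and 9 and 0 (without chow replicate 4 and KD replicate 1, libraries picked for their levels). The filter of 5 CPM in 4 samples gave 45 lower. Leaving out 1 sample gave 12 to 32 higher and 0 to 13 lower. The median of all genes was 0.031 under DESeq2. Of the fibroblast and matrix genes 0 were called with 5 CPM, with the replicate block, with log2(FPKM + 1) and without KD replicates 3 and 4, 3 without chow replicate 4 and KD replicate 1 (Postn, Col1a2 and Col6a1), and 0 to 1 without single samples. Of the mesothelial genes 1 was called with no filter, 0 with 5 CPM, 0 with the replicate block, 4 by DESeq2, 1 with log2(FPKM + 1), 0 without either pair of libraries and 0 to 1 without single samples. Their median was 5.05 with no filter, 0.0073 with 5 CPM (1 gene), 5.37 by DESeq2, 1.47 with log2(FPKM + 1), 4.66 without chow replicate 4 and KD replicate 1 and 2.77 to 5.42 without single samples; more of the 9 genes are tested in some of these. Of the other matrix genes 0 were called with the replicate block and without either pair of libraries, 6 by DESeq2, 2 with either FPKM setting and 0 to 2 without single samples. The median of the other matrix genes was 0.47 with 5 CPM and 0.42 with log2(FPKM + 1), and that of the other fibroblast genes 3.12 with the replicate block. Of the other mesothelial genes 1 was called by DESeq2, 1 with log2(FPKM + 1) and 2 with log2(FPKM + 0.1). The log2 fold change turned sign for Lum (-0.94 to 6.73 without single samples), Pdgfrb (-0.74 to 1.28 without single samples, -0.47 without KD replicates 3 and 4), Col4a2 (-0.93 without KD replicates 3 and 4) and Pecam1 (-0.16 there). Acta2 and Myl9 ran from -0.64 to 6.17 and from -1.41 to 6.13 without single samples, and were at -4.67 and -5.52 without KD replicates 3 and 4. Gsn turned positive with the replicate block (0.27), with FPKM (0.043 and 0.069) and without chow replicate 4 and KD replicate 1 (1.25), and ran from -1.12 to 1.03 without single samples. Lrrn4 lay at -0.0029 with no filter, -0.11 with the replicate block, -0.076 and -0.10 with FPKM, -0.014 without KD replicates 3 and 4 and -0.24 to 0.22 without single samples. Apart from left-out samples and smaller tested sets, the cause was not tested. Same-numbered samples deviated together with r = -0.11, 0.04, -0.11 and 0.05, and differently numbered samples with r = -0.14 to 0.15. These values cannot show whether same-numbered samples were handled together, which the sources used here do not state. All 12 genes called with the replicate block were among the 68. The summed mesothelial difference was 44.2 CPM, and 42.8 CPM without Lrrn4 and Krt18, an alternative chosen after seeing the data.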
